A study of Glycine max with 2 samples.

Results

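Clusters of 3 or more YAB1-like binding sites were described in whole soybean seeds at the globular embryo stage. A cluster was a run of ChIP-seq peaks on chromosomes 1 to 20 in which each summit, the base of highest signal in a peak, lay at most 2000 bp from the next. Peaks wider than 1000 bp were left out before the runs were formed. The rule gave 1237 clusters with 4174 peaks, 13.7% of the 30513 narrow chromosome peaks (Wilson 95% interval 13.3% to 14.1%) and 13.3% of the 31461 peaks in the list. Another 7446 peaks formed 3723 pairs, and 18893 peaks belonged to no run and are called single peaks.

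The ChIP library came from chromatin immunoprecipitation in Glycine max cultivar Williams 82 (replicate 1). Its seeds were 1.0 to 1.5 mm long, and a rabbit polyclonal antibody against a peptide of the YAB1-like protein was used. An input library (replicate 1) of total chromatin from the same kind of seeds was also listed, and no file of it was used here. Both libraries were made from plants with no transgene or treatment named in the labels. Whole seeds hold embryo, endosperm and seed coat together, so a peak cannot be assigned to any of these tissues.

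YABBY proteins are plant transcription factors with a zinc finger and a DNA-binding YABBY domain. In Arabidopsis they are best known for marking the abaxial, or lower, side of leaves and floral organs, and the family member INNER NO OUTER acts in the outer integument, the ovule layer that becomes part of the seed coat. Transcription factors often occupy several sites close together in regulatory DNA, so runs of neighbouring peaks can mark stretches bound at more than 1 point. Peaks are called sites here, although no motif, second replicate or antibody check was used.

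Members were chosen by summit position and peak width, and fold, width and pileup come from the same peak calls. All comparisons with pairs and single peaks are therefore descriptions, and no test was made. A peak's pileup is the number of overlapping ChIP fragments at its summit, recovered as a whole number from the deposited fold and p-value. The expected pileup is the level the peak caller took from its control, and which library served as that control is not stated. The deposited fold sets pileup plus 1 over expected pileup plus 1, and ratios given with intervals leave out the added 1. Of all narrow peaks, 17.2% had a fold of at least 6, 2.08% of at least 10 and 0.144% of at least 15. The median member rested on 20 fragments (exact 95% Poisson interval 12.2 to 30.9) and the lowest on 12 (6.201 to 20.96). Poisson intervals cover counting error of the ChIP library alone, and Wilson intervals treat peaks as independent. PCR copies without molecular identifiers are not independent molecules, and each pileup was read at a summit that had passed the caller's cutoff, so pileups may be overstated.

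Most clusters were short runs. Of the 1237 clusters, 902 (72.9%) had 3 summits, 235 had 4, 77 had 5 and 21 had 6. There were 0 clusters of 7, 1 of 8 and 1 of 9. The 100 clusters with 5 or more summits held 528 peaks. From first to last peak edge, the median cluster was 2849 bp long (95% interval of the median 2805 to 2910 bp), and lengths ran from 1088 to 10244 bp. Together the clusters spanned 3710 kb, of which the member peaks covered 1790 kb, or 48.3%. Within single clusters this share ranged from 21.2% to 92.7%, and the rest lay between peaks.

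**Figure D1:**
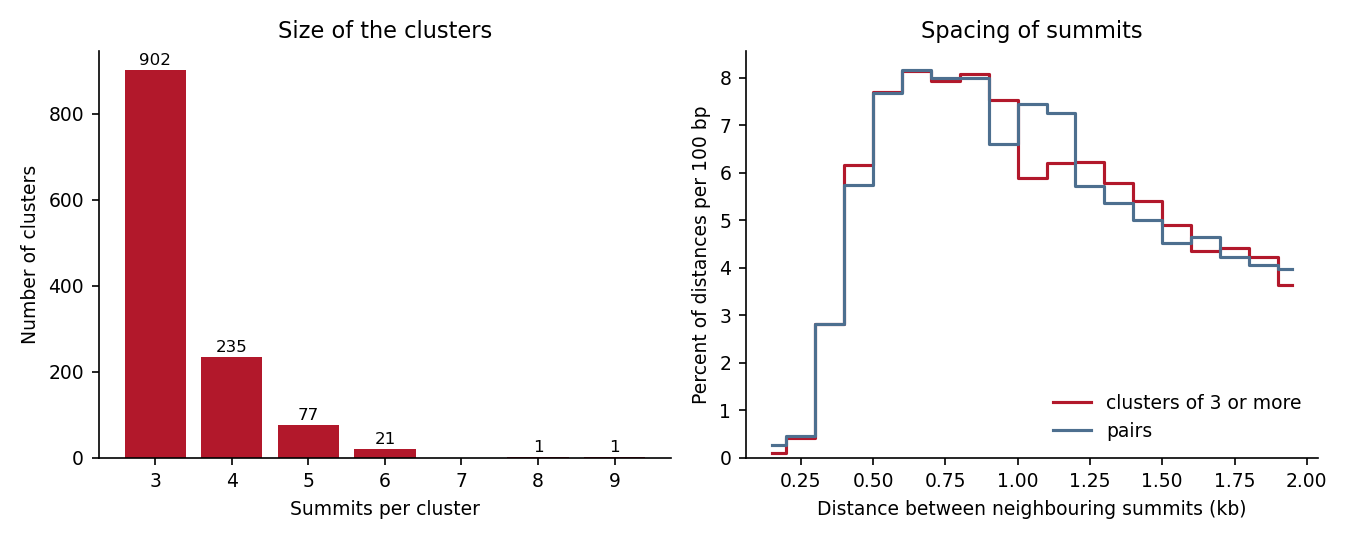
Left, number of clusters by summits per cluster. Right, percent of distances between neighbouring summits in each 100 bp step, for clusters (2937 distances) and pairs (3723 distances). The 3-summit clusters made up 902 of 1237, and both spacing curves were highest between 0.5 and 1 kb.

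The distance between neighbouring summits in clusters was limited to 2000 bp by the rule, and its median followed that limit, with 676 bp at a limit of 1000 bp and 1688 bp at 5000 bp. At 2000 bp the median of 2937 distances was 1019 bp (quartiles 697 and 1438 bp), with 39.3% between 500 and 1000 bp and 9.57% at 500 bp or less. The shortest distance was 161 bp. Pairs, which were formed under the same limit, had a median of 1027 bp (quartiles 698 and 1427 bp). The 95% interval of the median was 987 to 1056 bp in clusters and 1009 to 1053 bp in pairs. Between peak edges the median gap in clusters was 576 bp, and in 677 of 2937 gaps (23.1%) it was no longer than 246 bp, the smallest peak width in the list. The closest members had 52 bp between their edges, which was also the smallest gap in pairs and among all chromosome peaks.

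The cluster with most summits lay at 39937056 to 39947299 on chromosome 7. Its 9 summits held 16, 14, 16, 16, 48, 19, 18, 52 and 15 ChIP fragments in chromosome order. The fifth and the eighth stood above the rest. The fifth had 48 fragments against 3.37 expected, a ratio of 14.2 (95% interval 10.5 to 18.9), and the eighth had 52 against 3.85, a ratio of 13.5 (10.1 to 17.7). These 2 intervals overlapped each other almost fully, and neither overlapped that of the next highest member, with a ratio of 6.17 (3.72 to 9.64). The 8-summit cluster at 37482998 to 37490300 on chromosome 3 held 27, 17, 24, 52, 17, 16, 18 and 16 fragments. Only the fourth, with a ratio of 9.82 (7.33 to 12.9), reached a deposited fold of 6 or more, and the others had ratios of 4.41 to 6.51.

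The highest summed pileup of all clusters, 239 fragments, was at 20430473 to 20436136 on chromosome 4. Its 6 summits held 68, 19, 86, 23, 20 and 23 fragments. The first and the third had ratios of 21.7 (16.8 to 27.5) and 27.9 (22.3 to 34.5), and their summits were 2479 bp apart. Between them lay a weak peak of 19 fragments where 6.26 were expected, a ratio of 3.04 (1.83 to 4.74). The intervals of both strong summits overlapped, and neither overlapped that of any other summit in the cluster.

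The other clusters among the 10 with most summits had 6 each, with ties ordered by highest fold. On chromosome 11 the cluster at 32055328 to 32061649 held 19, 49, 36, 21, 15 and 23 fragments, and the cluster at 3328549 to 3334202 held 36, 19, 17, 19, 16 and 21. On chromosome 12 the cluster at 38381079 to 38386726 held 19, 36, 24, 44, 16 and 33 fragments, and that at 37809326 to 37813073 held 32, 19, 15, 18, 15 and 29. In each of these 4, the strongest member was between 1.10 and 1.71 times the next. On chromosome 8 the cluster at 6237781 to 6245001 held 19, 21, 29, 47, 16 and 25 fragments, and that at 910040 to 914350 held 41, 32, 16, 24, 17 and 16. On chromosome 10 the cluster at 49165461 to 49171577 held 27, 18, 22, 19, 18 and 37. In this last cluster both outer summits were the strongest, with ratios of 8.70 (5.73 to 12.7) and 12.02 (8.46 to 16.6).

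**Figure D2:**
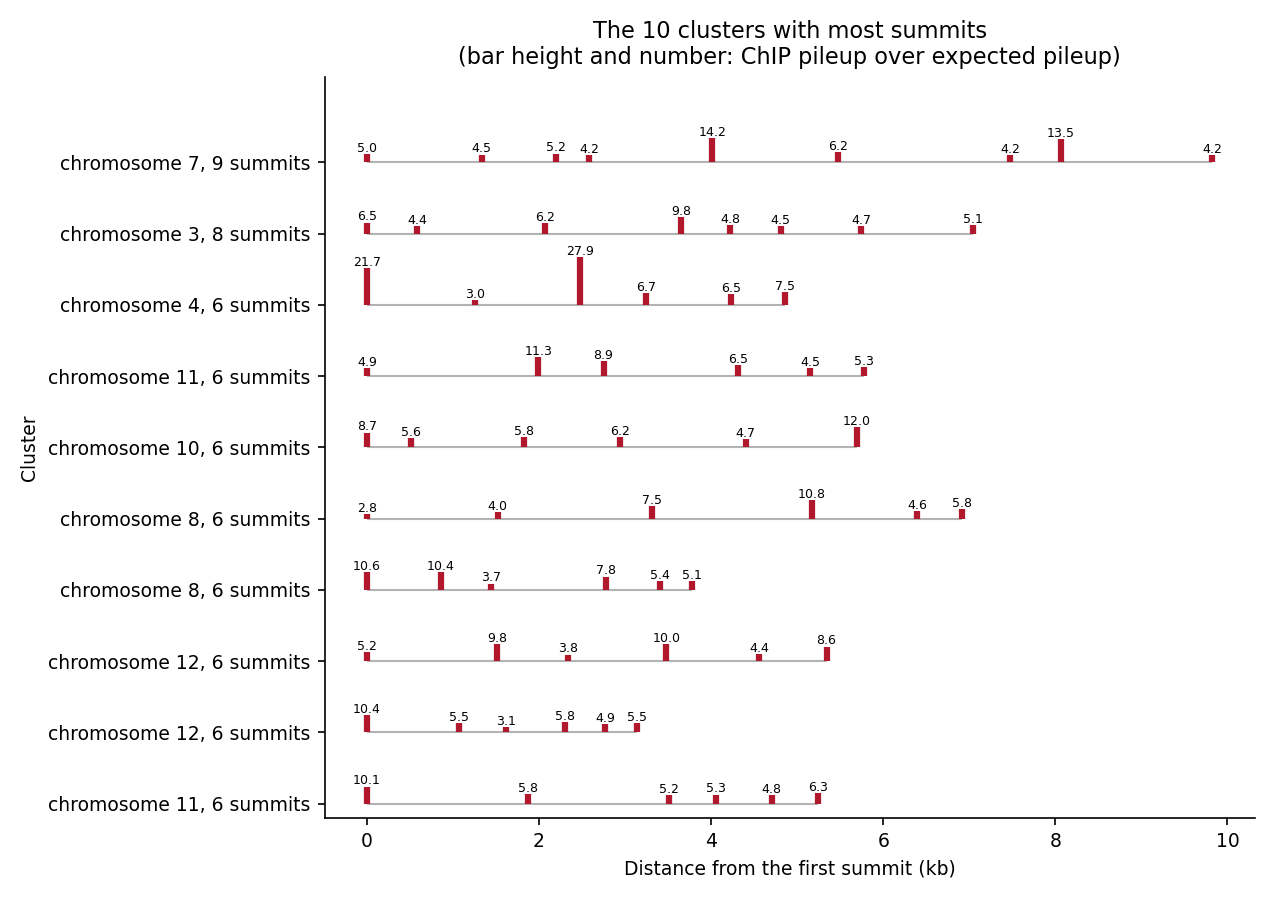
The 10 clusters with most summits, 1 row each. The horizontal axis is distance from the first summit in kb, and each bar is a summit whose height and number give the ratio of ChIP pileup to expected pileup. The chromosome 4 cluster holds the highest bars, 27.9 and 21.7, and the chromosome 7 cluster is the longest, with summits over 9826 bp.

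The strongest single member of any cluster lay at 8473685 to 8474414 on chromosome 7, in a cluster of 4. Its 119 fragments against 3.85 expected gave a ratio of 30.9 (25.6 to 37.0). The other members of that cluster held 23, 30 and 15 fragments, with ratios of 7.01, 5.66 and 4.66. A similar layout occurred at 14061060 to 14065703 on chromosome 13, where 107 fragments at the third of 5 summits, a ratio of 24.7 (20.2 to 29.8), stood beside 35, 18, 21 and 20. At 47328805 to 47333645 on chromosome 15, 90 fragments at the second of 5 summits, a ratio of 20.8 (16.7 to 25.5), stood beside 25, 18, 14 and 22. In all 3 clusters the next highest member had 25 to 35 fragments.

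The 10 clusters of highest fold also included the chromosome 4 cluster above. In the cluster at 3353889 to 3357368 on chromosome 5 the summits held 75, 24 and 19 fragments, and in that at 5886844 to 5890031 on chromosome 1 they held 37, 19 and 74. The cluster at 31102067 to 31105438 on chromosome 13 had 50, 17, 80 and 40 fragments, so 3 of its 4 summits had a fold of at least 6. The cluster at 37233978 to 37236196 on chromosome 13 had 66, 18 and 21. The cluster at 5521451 to 5524732 on chromosome 18 had 30, 16 and 70, and that at 1899230 to 1901910 on chromosome 15 had 23, 24 and 75. The strongest member of the 3-summit clusters in this list was the first or the last summit in every case.

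A fold of 10 or more was reached by more than 1 member in 10 of the 1237 clusters. Such a fold was rare among peaks in general, at 3.02% of clustered and 2.08% of all narrow peaks. The count of 10 was not set against a number expected from these shares. The cluster at 38842373 to 38847691 on chromosome 20 held 65, 48, 46 and 39 fragments, and its first 3 summits had ratios of 15.7 (12.1 to 19.98), 15.6 (11.5 to 20.7) and 14.9 (10.9 to 19.9). It was the 1 cluster with 3 members of fold 10 or more. The cluster at 36765790 to 36771201 on chromosome 9 held 65, 53, 30, 30 and 21 fragments. Both were among the 5 clusters with the highest summed pileup, beside the clusters described above on chromosome 4, on chromosome 7 with 9 summits, and on chromosome 13 with 5. The sums of the 5 ranged from 198 to 239 fragments.

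The 5 shortest clusters were all 3-summit runs and spanned 674 to 848 bp from first to last summit. Their highest fold was 5.15, where the median fold of all members was 4.51. At 35320279 to 35321366 on chromosome 18 the summits held 20, 15 and 17 fragments, and the gaps between peak edges were 65 bp each. On the same chromosome, 41519567 to 41520691 had 15, 20 and 15 fragments. Chromosome 1 (3233242 to 3234418), chromosome 20 (47610438 to 47611546) and chromosome 11 (34023130 to 34024446) held the others, with 12 to 22 fragments per summit. Peaks covered 72.6% to 88.1% of these 5 clusters, and intervals of all their members overlapped within each cluster.

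Clusters of 5 or more summits occurred on all 20 chromosomes. The largest cluster per chromosome had 5 summits on chromosomes 2, 6, 9, 13, 15, 16 and 18, and 6 on another 11 chromosomes. On chromosome 6 the largest, at 21479516 to 21484220, held 17, 55, 31, 54 and 15 fragments, with ratios of 17.9 (13.5 to 23.3) and 10.196 (7.66 to 13.3) at its 2 strongest summits. On chromosome 16 the cluster at 1219460 to 1224104 held 49, 23, 19, 27 and 26. Flat profiles also occurred, as at 7815142 to 7819299 on chromosome 17, with 25, 23, 27, 26, 23 and 16 fragments. In the largest clusters of chromosomes 1, 2, 5, 14, 18, 19 and 20 the highest member had 28 to 39 fragments and a fold of 5.68 to 9.15. On chromosome 14, for example, the 6 summits at 9408935 to 9413844 held 20, 19, 19, 20, 21 and 30 fragments. On chromosome 19 the cluster at 34983611 to 34986894 packed 6 summits into 2816 bp, with 32, 17, 18, 18, 22 and 26 fragments, and peaks covered 71.8% of it. On chromosome 20 the cluster at 45939399 to 45947532 spread 6 summits over 7706 bp, with 19, 20, 13, 18, 33 and 21 fragments and 40.7% covered.

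Within clusters, sites differed from each other about as much as sites of different clusters. The SD of log2 fold was 0.42 within clusters and 0.44 over all members, and 8.66% of the variance of log2 fold lay between clusters. The Spearman correlation of fold between neighbouring members was 0.08 over 2937 neighbours, which share a library and an overlapping control window. The highest pileup of a cluster had a median of 26 fragments, the next highest 20 and the lowest 16. The highest was a median of 1.24 times the next (95% interval of the median 1.22 to 1.26) and 1.59 times the lowest (1.56 to 1.62). These ratios are between values picked as highest and lowest, so counting error alone makes them larger than 1.

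A single dominant site was uncommon. In 88 clusters (7.11%, Wilson 95% interval 5.81% to 8.68%) the highest pileup was at least 2 times the next, and in 12 clusters at least 3 times. The Poisson intervals of the highest and the next did not overlap in 75 clusters (6.06%), and those of the highest and the lowest did not overlap in 226 (18.3%). Where the intervals of the highest and the next overlapped, their order remained uncertain at this depth. Overlap of separate intervals is not a test that the pileups are alike. Among the 1237 clusters, 590 (47.7%) had at least 1 member with a deposited fold of 6 or more. Of all narrow peaks, 17.2% passed that fold, and each cluster had 3 or more peaks that could pass it. All members passed in 14 clusters (1.13%). A fold of at least 10 was reached in 115 clusters, by 1 member in 105 of them, by 2 in 9 and by 3 in 1. That fold was reached by 2.08% of all narrow peaks.

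**Figure D3:**
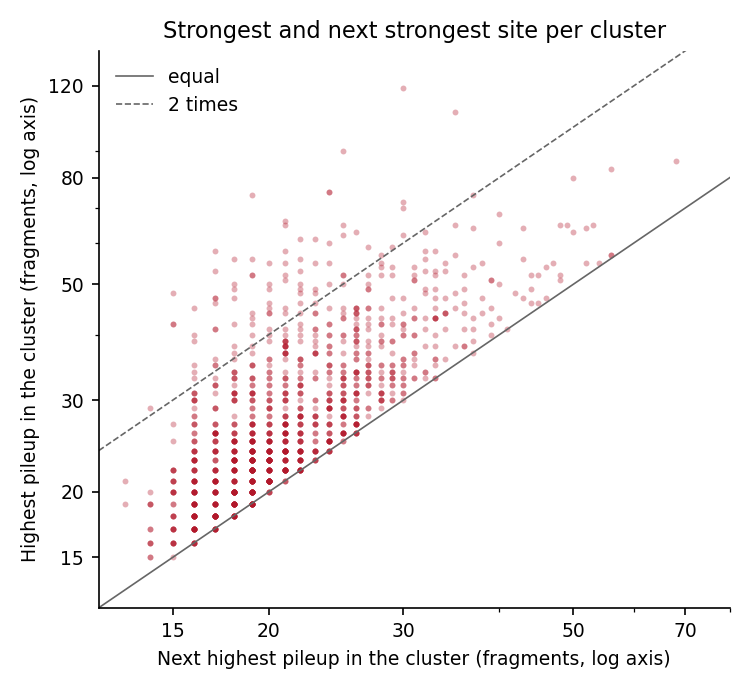
Highest pileup of each of the 1237 clusters (vertical) against its next highest pileup (horizontal), in ChIP fragments on log axes. The solid line marks equal pileups and the dashed line a ratio of 2; 88 clusters lie on or above the dashed line.

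The strongest site had no fixed place in the run. It was an inner summit in 443 (38.2%) of the 1160 clusters without a tie for highest pileup. In 3-summit clusters it was the first summit in 264, the inner in 287 and the last in 294 of 845, so 34.0% were inner (30.9% to 37.2%) where an even share is 33.3%. In 4-summit clusters 98 of 220 were inner, 44.5% (38.1% to 51.2%), where an even share is 50%. In 5-summit clusters 47 of 73 were inner, 64.4% (52.9% to 74.4%), where an even share is 60%. Inner and outer members had nearly equal median fold, 4.52 for 1700 inner and 4.51 for 2474 outer members. A fold of at least 10 was reached by 2.59% (1.93% to 3.46%) of inner and 3.31% (2.68% to 4.10%) of outer members, and by 2.08% of all narrow peaks. The intervals of inner and outer members overlapped.

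Clustered sites resembled single sites in typical strength. Median fold was 4.51 in clusters (95% interval of the median 4.47 to 4.57), 4.47 in pairs (4.41 to 4.50) and 4.50 in single peaks (4.47 to 4.51). The median pileup was 20 fragments and the median ratio of pileup to expected 5.5 in all 3 groups. Median width was 379 bp (374 to 385 bp) in clusters, 372 bp in pairs and 366 bp (364 to 369 bp) in single peaks. Members had the higher median fold on 9 of the 20 chromosomes when set against single peaks of the same chromosome. Cluster size from 3 to 6 made little difference, with median fold between 4.50 and 4.68 in clusters of 3, 4, 5 and 6. The 1 cluster of 8 summits had a median fold of 4.03, and the 1 of 9 had 4.05.

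The high end of the distribution differed. A fold of at least 10 was reached by 126 of 4174 clustered peaks, 3.02% (Wilson 95% interval 2.54% to 3.58%), by 164 paired peaks, 2.20% (1.89% to 2.56%), and by 346 single peaks, 1.83% (1.65% to 2.03%), while 2.08% of all narrow peaks passed it. A fold of at least 6 was reached by 19.2% (18.05% to 20.4%) of clustered and 16.7% (16.2% to 17.2%) of single peaks. A fold of at least 15 was reached by 12 clustered peaks (0.287%) and 17 single peaks (0.0900%), where 0.144% of all narrow peaks passed. The intervals treat neighbouring peaks as independent. Clusters had the higher share at fold 10 on 13 of 20 chromosomes. The difference between clustered and single peaks was 1.19 percentage points (Newcombe 95% interval 0.669 to 1.78). This comparison was chosen after seeing the data. Peaks of 1 library are not replicates, so this interval and those below describe counting error and are not tests. When summits at most 1000 bp apart were required, the group of single peaks grew from 18893 to 24507. It then included peaks with a neighbour over 1000 and up to 2000 bp away. The share was 1.76% in clusters and 2.19% in these single peaks. The difference was -0.43 points, and its interval of -1.07 to 0.53 included 0. With a width limit of 500 bp the difference was 0.306 points (-0.0088 to 0.813), which also reached 0.

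The clusters lay in denser stretches, so this share was also compared at like density. In 1 Mb windows with up to 19 narrow peaks, 16 of 328 clustered peaks reached a fold of 10, 4.88% (3.02% to 7.78%), against 1.61% (1.17% to 2.21%) of single peaks. In windows with 80 or more peaks the shares were 3.13% (2.27% to 4.30%) in clusters and 1.85% (1.45% to 2.36%) in single peaks. In the 3 density classes between these, clusters had 2.67% to 2.82% and single peaks 1.66% to 2.05%, and clusters had the higher share in each. The intervals of clusters and single peaks overlapped in 4 of the 5 classes, and in the sparsest class they did not. In the 115 clusters with a member of fold 10 or more, the other 281 members, below 10 by definition, had a median fold of 4.70 (4.58 to 4.90). Members of clusters without such a site had a median fold of 4.41 (4.41 to 4.50).

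**Figure D4:**
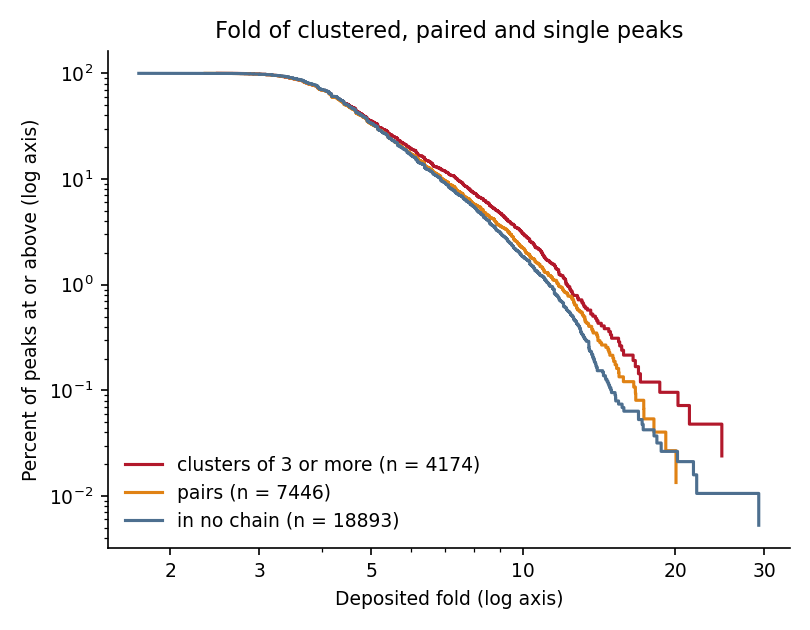
Percent of peaks with a deposited fold at or above the value on the horizontal axis, both on log axes, for clustered, paired and single peaks. The curves coincide near the medians of 4.51, 4.47 and 4.50 and separate above a fold of about 6, with 3.02%, 2.20% and 1.83% at a fold of 10.

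Closely spaced members were weaker and narrower. Members whose nearest summit lay within 500 bp (539 peaks) had a median fold of 4.07 and a median width of 308 bp. A fold of 10 or more was reached by 4 of them, 0.742%, and by 2.08% of all narrow peaks. Median fold was 4.58 at distances over 500 and up to 1000 bp, 4.66 up to 1500 bp and 4.66 up to 2000 bp, and 4.58% of the last class reached a fold of 10. Paired peaks had a median fold of 4.17 within 500 bp, 4.41 up to 1000 bp, 4.66 up to 1500 bp and 4.58 up to 2000 bp. In pairs a fold of 10 was reached by 0.144% in the nearest class and 3.20% in the farthest. A wide peak and a close neighbour cannot share a stretch, so width and distance are not independent measures. Members of fold 10 or more had a median width of 666 bp, and single peaks of that fold 659.5 bp.

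The median expected pileup was 3.43 fragments in clusters, pairs and single peaks. It was at least 2 times the caller's genome-wide average of 3.08 in 64 clustered peaks, 1.53%, and in 1.55% of single peaks. The control did not exceed that average in 16.4% of clustered peaks (15.32% to 17.57%) and 18.1% of single peaks (17.601% to 18.70%). These intervals nearly touched, and they treat peaks as independent although neighbouring members share an overlapping control window. They therefore do not settle whether the shares differ. Under the 8 alternative settings the clustered share ran from 13.3% to 19.01%, the latter with summits at most 1000 bp apart. All members lay at the average in 36 clusters, and none did in 802. The highest expected pileup in a cluster was a median of 1.28 times the lowest. The 5 clusters with the highest median expected pileup, 4.97 to 5.30 fragments, were all of 3 summits. At 14014329 to 14017346 on chromosome 2 they held 49, 20 and 17 fragments, at 2789589 to 2793312 on the same chromosome 44, 16 and 20, and at 46839744 to 46842778 on chromosome 19 33, 23 and 29. The cluster at 44341255 to 44343241 on chromosome 20 held 22, 31 and 45, and that at 45590100 to 45592901 on chromosome 8 held 23 at each summit.

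Clusters were found along every chromosome. Counts ranged from 41 on chromosome 16 to 106 on chromosome 13, or from 0.897 per Mb on chromosome 18 to 2.32 per Mb on chromosome 13 (mean 1.32 ± 0.349, SD, 20 chromosomes). The share of narrow peaks in clusters varied less, from 11.4% on chromosome 17 (9.95% to 13.01%) to 16.3% on chromosome 11 (14.6% to 18.3%), with 15.6% on chromosome 13. Across the 20 chromosomes peaks per Mb and clusters per Mb had a Spearman correlation of 0.90, given as a description because more peaks in a stretch form more runs by construction. By window density, 9.64% of peaks were in clusters in 1 Mb windows with up to 19 narrow peaks, and 18.8% in windows with 80 or more.

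**Figure D5:**
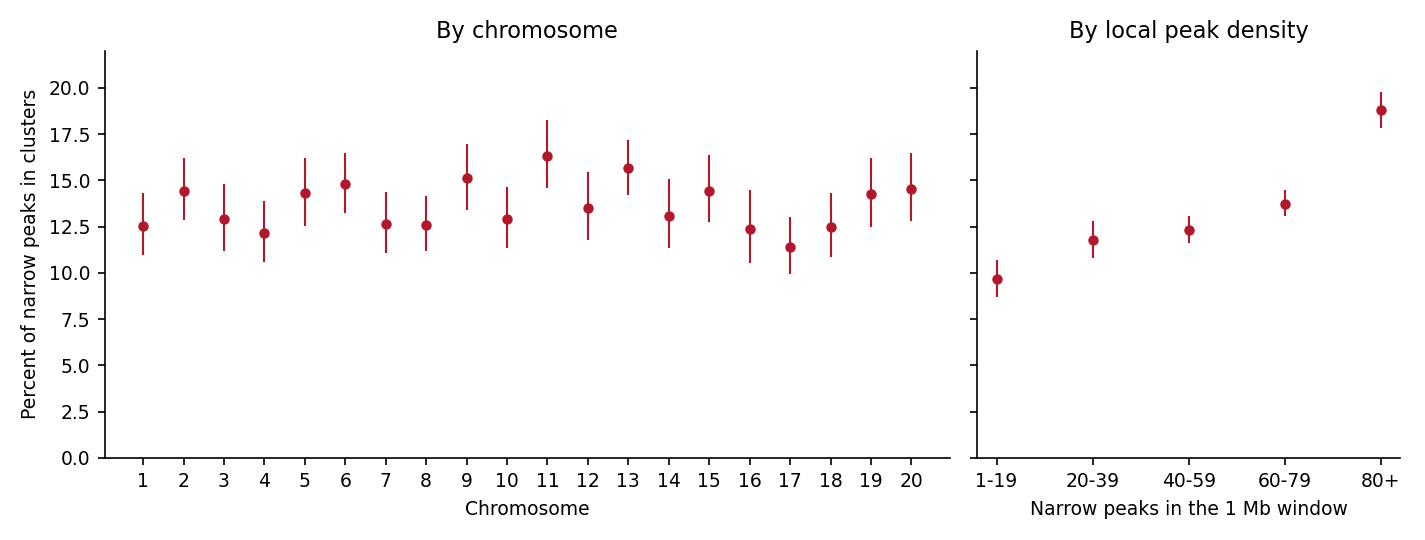
Percent of narrow peaks that belong to clusters, by chromosome (left) and by the number of narrow peaks in the same 1 Mb window (right), with Wilson 95% intervals. Chromosomes lie between 11.4% and 16.3%, and the share rises with density to 18.8% in windows of 80 or more peaks.

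At least 1 cluster was present in 510 of 956 windows of 1 Mb (53.3%), and 66 windows held 5 or more. The windows with most clusters, 9 each, were 34000001 to 35000000 on chromosome 13 and 38000001 to 39000000 on chromosome 12. When each chromosome was cut into 3 parts of equal length, the central part held 489 members, 11.7% (10.8% to 12.7%), and 12.2% (11.8% to 12.7%) of single peaks. On chromosome 13 the central part held 147 of the 351 members, 41.9% (36.8% to 47.1%), and a like share of that chromosome's single peaks, 39.6% (37.04% to 42.2%). Of the members 16.6% (15.5% to 17.7%) lay within 2 Mb of a chromosome end, taken as base 1 or the last peak end, and of the single peaks 15.7% (15.2% to 16.2%).

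Most clusters stood apart from each other. The distance from a cluster to the nearest narrow summit outside it was held above 2000 bp by the rule. Its median was 5.93 kb (quartiles 3.32 and 13.03 kb). It was within 5 kb for 531 clusters (42.9%) and over 20 kb for 195 clusters (15.8%). The most isolated, at 23447121 to 23450155 on chromosome 7, had 4 summits and its nearest other narrow summit was 1054 kb away. Neighbouring clusters were a median of 281 kb apart. Only 100 clusters had another within 10 kb, in 49 groups, of which 2 had 3 clusters. On chromosome 9, 3 clusters with 14 summits lay between 41022379 and 41040649, with a highest fold of 11.8, and on chromosome 10, 3 clusters with 9 summits lay between 44358992 and 44374264, with a highest fold of 5.64. In the chromosome 9 stretch, 1 peak wider than 1000 bp had been left out by the rule.

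The borders of the rule fell within a continuous range of distances. There were 109 pairs of neighbouring member summits over 1900 and up to 2000 bp apart, 2 of them at exactly 2000 bp, with a median fold of 4.67 on both sides. Just outside, 86 gaps over 2000 and up to 2100 bp would have made or extended a cluster if bridged, with a median fold of 4.58. The 745 chromosome peaks wider than 1000 bp were left out by the rule. When the width limit was dropped, 119 of them (16.0%) joined runs of 3 or more summits, beside 14.3% of all chromosome peaks. A wide summit lay within 2 kb of 0.982% of clustered peaks, 1.195% of paired and 1.08% of single peaks, and within 2 kb of 33 clusters (2.67%).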

How the data were processed

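MACS2, SAMtools 0.1.18 and Bowtie 0.12.7 are named in the submitters' processing notes. The sources used here give neither alignment and calling settings nor the caller's control and the build. The authors deposited 1 peak list, for the ChIP library. Its deposited fold is a ratio of ChIP pileup to expected pileup, its deposited −log10 values are p-values and q-values, and its deposited score is about 10 times the −log10 q-value. Coordinates are 1-based on the unnamed build of the list. A gene table of another assembly could not be joined to them, so no genes, motifs or sequences are given, and the planned description of these was not made.

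Fold and p-value were inverted to whole pileups with the caller's pseudocount of 1. All 31461 peaks matched within 0.0001, and every other whole number missed by 0.0567 or more. The inversion and the chaining were tested on simulated data. The genome-wide average is the smallest expected pileup, 3.08, with a tolerance of 0.0005 fragments. Medians have binomial order-statistic 95% intervals. Python 3.11.15, pandas 2.3.3 and SciPy 1.17.1 were used.

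Clusters named are the 10 with most summits, the 10 of highest fold, the 5 each of highest summed pileup, highest median expected pileup and shortest span, and the largest per chromosome. Members and lists were chosen with earlier results of these data known. The clusters were recomputed under 8 alternatives.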

Additional observations from a re-analysis of the deposited data

Results flagged for a closer look

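The clusters described above leave out unplaced scaffolds and wide peaks, and both were looked at because they lie outside those comparisons. On the scaffolds, 198 narrow peaks on 43 scaffolds formed 5 clusters, all of 3 summits, with 15 peaks, 7.58% of the narrow scaffold peaks (Wilson 95% interval 4.64% to 12.1%). Their median fold was 4.69 and ranged from 3.50 to 13.7. The highest belonged to a cluster on scaffold 21 whose summits held 23, 16 and 55 fragments. Scaffold sequences can be short, which limits runs, and their lengths were not used here.

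When the width limit was dropped, 119 of the 745 wide chromosome peaks (16.0%, 13.5% to 18.8%) joined runs of 3 or more summits. Of all chromosome peaks, 14.3% were in such runs under that setting, a share within this interval. The 119 wide peaks took part in 113 runs and had a median fold of 7.01, against 6.62 for the other wide peaks. The largest run then had 12 summits, at 41030822 to 41043865 on chromosome 9, and 2 of its peaks were wider than 1000 bp.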

How the results depend on the processing

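Recomputing 11 results under 8 alternatives gave 88 values, of which 30 stayed within the interval of the reported value, or within 1.5 times it for counts. One of the results, the share at fold 10 or more in clustered minus single peaks, was chosen after seeing the data. Its single peaks were formed anew under each alternative. The cause of the moves was not tested beyond what each setting builds in (fewer or more peaks, shorter or longer distances). A summit distance of 1000 bp gave 357 clusters with 1136 peaks, 3.72% of narrow peaks. Their median fold was 4.35, width 354 bp and summit distance 676 bp. Of these peaks, 19.01% lay at the genome-wide average and 15.9% in the central parts of chromosomes. The strongest summit was an inner one in 31.8%. The difference at fold 10 was -0.43 percentage points, against 1.19 as reported. Its interval of -1.07 to 0.53 included 0, so its sign was not determined. A distance of 5000 bp gave 2704 clusters with 10340 peaks (33.9%), summit distance 1688 bp, 15.1% at the average, 9.84% in central parts and 43.9% inner. Without a width limit 14.3% of peaks were in clusters. A width limit of 500 bp gave 566 clusters with 1833 peaks (8.01%), median fold 4.24, width 330 bp, summit distance 919 bp, highest over next 1.19, 12.8% in central parts and a difference of 0.306 points. A −log10 q-value of at least 5 gave 630 clusters with 2078 peaks (8.95%), fold 4.96, width 418 bp, summit distance 1109.5 bp, 9.58% in central parts and a difference of 1.93 points. At 10 or more there were 52 clusters with 165 peaks (2.18%), fold 7.31, width 539 bp, summit distance 1087 bp, highest over next 1.22, 13.3% at the average, 13.3% in central parts and a difference of 6.58 points. Peaks with edges within 500 bp were also merged by keeping only the peak of highest fold, with its own summit and width. A higher fold is thus built in. This merging gave 432 clusters with 1378 peaks (4.99%), fold 4.58, summit distance 1382 bp, 14.9% at the average and 10.5% in central parts. Requiring 4 or more summits left 335 clusters with 1468 peaks (4.81%), 14.2% at the average, 10.01% in central parts and 49.5% inner. No replicate could be left out. No paired analysis was possible because the list of peaks covers 1 library. Counting error at this depth limits how far sites can be ordered within a cluster. In most clusters the Poisson intervals of the highest and next highest pileup overlapped, and their order was not tested.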
